A study of Ipomoea batatas with 18 samples.

Results

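The change of the root transcriptome between 30 and 100 days was followed in 15-94, a low-starch sweetpotato (Ipomoea batatas) cultivar. Unigenes, which are transcripts assembled without a genome, were kept where at least 3 of the 6 libraries of these ages held 1 FPKM or more (fragments scaled by transcript length and library size). This rule kept 23942 of the 46840 unigenes in the table, or 51.1%. The groups compared were 15-94 roots of 30 days and 15-94 roots of 100 days, with 3 libraries each. Libraries of 15-94 at 65 days, and of the high-starch cultivar Chuanshu 218 at 30, 65 and 100 days, again 3 each, were set beside them. All plants were grown in pots in a greenhouse under natural light, and no treatment or transgene is named. The labels do not tie a library to a plant, and every p-value below rests on spread among libraries that may be technical.

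A sweetpotato root that becomes a storage root thickens through the activity of its cambium, and its parenchyma cells fill with starch and with storage proteins, mainly sporamins. Roots that do not take this path stay thin and lignify. Whole roots were measured, so a change in the RNA per cell and a change in the share of cells of a type cannot be told apart. The files pair no unigene ID with a gene name, and 0 of the 46840 IDs matched the gene table of the reference assembly IBA_r1.0. The labelled tissue could therefore not be checked against marker genes, no pathway could be described, and at most 2 IDs are named in each direction.

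Of the 23942 unigenes, 16505 reached 1 FPKM in all 6 libraries. A further 7189 reached it in libraries of both ages but not in all 6. Only 107 reached it in all 3 libraries of 30 days and in none of 100 days, and 141 showed the opposite. Both of these small sets passed the filter through 1 age and so had to differ. The median of the mean level over the 6 libraries was 9.48 FPKM, with quartiles of 3.42 and 27.4 FPKM. The kept unigenes held between 99.3% and 99.6% of the summed FPKM of each of the 6 libraries. In Chuanshu 218, 894 of them stayed under 1 FPKM in all 9 libraries, and 417 were listed at 0 in all 9.

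The libraries of 30 days were the less alike. Profile correlations across the kept unigenes, on log2(FPKM + 1), averaged 0.825 between libraries of 30 days, 0.861 between libraries of 100 days and 0.820 between these ages. The correlation of replicate 2 of 30 days was 0.778 with replicate 1 and 0.819 with replicate 3 of its own age, and 0.860, 0.826 and 0.811 with replicates 1, 2 and 3 of 100 days. It was thus no closer to its own age than to the other. Replicate 3 of 30 days had 0.878 with replicate 1 of its age, and 0.849, 0.872 and 0.779 with those of 100 days. Sequencing depth also differed within the age. Small FPKM values are whole multiples of the worth of a single read, which is larger in a shallower library. Relative to the deepest of the 18 libraries, a read counted for 4.0, 1.91 and 2.87 units in replicates 1, 2 and 3 of 30 days. At 100 days it counted for 1.93, 1.95 and 2.31 units, and at 65 days for 2.14, 1.74 and 1.64 units. Replicate 2 of 30 days was thus about as deep as the libraries of 100 days, and replicates 1 and 3 were shallower. This reading assumes that no other scaling was applied. Depth and age therefore go together in replicates 1 and 3.

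With all 18 libraries sharing 1 estimate of spread, 8 unigenes rose and 5 fell from 30 to 100 days in 15-94 (limma, Benjamini-Hochberg adjusted p under 0.05 over the 32529 unigenes tested, and at least 2-fold). They are 0.04% of the unigenes tested. All 13 were among the 23942 kept, but 6 of them, 3 in each direction and Iba_09379 among them, reached 1 FPKM in all libraries of 1 age and in none of the other. These 6 were kept only through the age where they were high and had to differ. The changes ran from 1.77 to 6.56 on the log2(FPKM + 1) scale among those that rose and from -6.26 to -2.77 among those that fell. Adjusted p values ran from 0.0149 to 0.0445. For weakly expressed unigenes the added 1 makes differences look smaller than they are.

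Iba_34075 had the largest rise among the called unigenes. It was listed at 0, 13.8 and 0 FPKM in replicates 1, 2 and 3 of 30 days, and had 250.1, 196 and 249.8 FPKM at 100 days. All 3 libraries of 100 days lay far above those of 30 days, among which replicate 2 alone held a level above 0. At 65 days the values were 0, 53.6 and 2.82 FPKM, so 2 libraries of that age lay within the range of 30 days and replicate 2 lay between the ages. The log2 change was 6.56 (SE 1.09, limma adjusted p = 0.0363). In Chuanshu 218 it never exceeded 0.95 FPKM.

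Iba_07845 followed the same course at a lower level. It had 0, 19.2 and 0 FPKM at 30 days, 1.43, 26.3 and 3.86 FPKM at 65 days, and 156, 222 and 116 FPKM at 100 days. Again replicate 2 was the library of 30 days nearest to those of 100 days, and the ages did not overlap. The log2 change was 5.88 (SE 0.93, limma adjusted p = 0.0312), and the highest value in Chuanshu 218 was 0.82 FPKM. The unigene with the preceding ID number also rose, by 5.36 (log2).

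Iba_09379 had the largest fall among the called unigenes. Its levels were 252, 20.8 and 81.1 FPKM at 30 days, with the lowest in replicate 2. It was listed at 0, 0 and 0.75 FPKM at 65 days and at 0 in all 3 libraries of 100 days. The libraries of 65 days were thus already at or near 0. The log2 difference was -6.26 (SE 0.91, limma adjusted p = 0.0245). In Chuanshu 218 it had 162, 41.4 and 13.7 FPKM at 30 days and 3.54, 37.0 and 3.65 FPKM at 100 days, values that overlap between the ages.

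Iba_44809 fell from a steadier level. At 30 days it had 83.1, 69.6 and 106 FPKM, at 65 days 12.1, 5.91 and 29.05 FPKM, and at 100 days 0, 10.1 and 0.39 FPKM. The libraries of 65 days lay below all of 30 days and overlapped those of 100 days. The log2 difference was -5.11 (SE 0.69, limma adjusted p = 0.0149). In Chuanshu 218 it was listed at 0 in 8 libraries and at 0.27 FPKM in the remaining one.

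**Figure D1:**
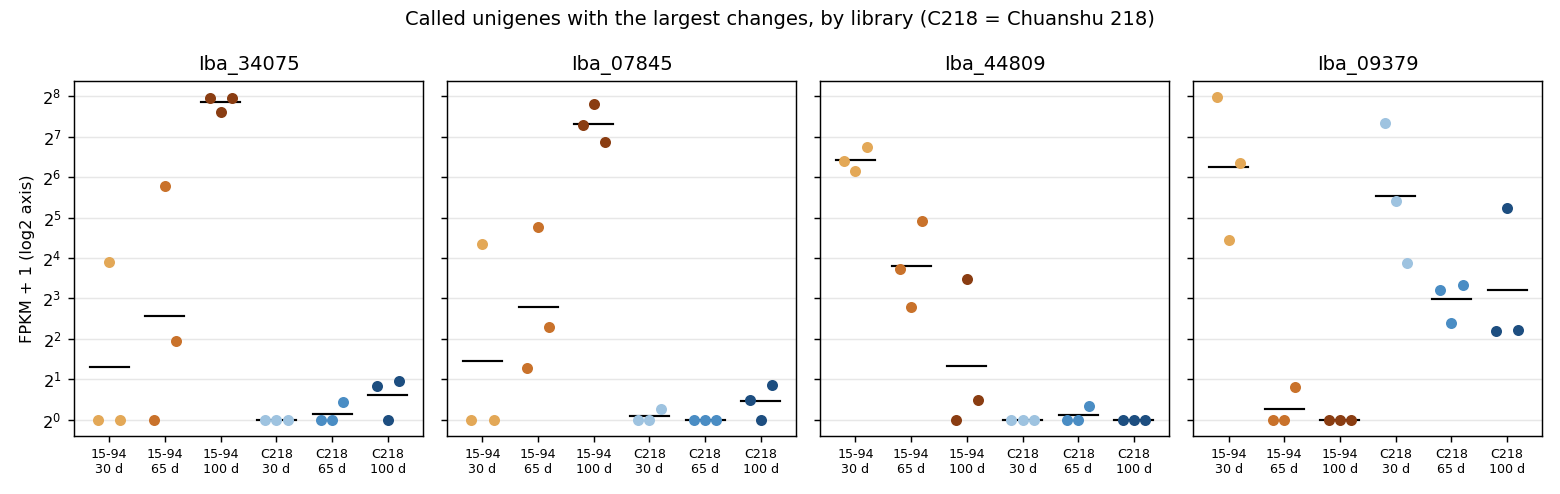
FPKM + 1 on a log2 axis for the 4 named unigenes in each of the 18 libraries, grouped by cultivar and age; points are libraries and bars the means on the log2 scale (n = 3). Iba_34075 and Iba_07845 lie above 100 FPKM only in 15-94 at 100 days, and Iba_44809 is above 60 FPKM only in 15-94 at 30 days, while Iba_09379 is also present in Chuanshu 218.

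Of the other called unigenes, the most abundant had 64.5, 259 and 206 FPKM at 30 days, 1128, 2255 and 311 FPKM at 65 days and 4775, 5257 and 1358 FPKM at 100 days. Its log2 change was 4.41 (SE 0.73, limma adjusted p = 0.0363), and in Chuanshu 218 its values ran from 1.2 to 22.2 FPKM. The remaining ones reached mean levels between 2.44 and 126 FPKM at the age where they were higher. In Chuanshu 218, 7 of the 13 called unigenes stayed under 1 FPKM in all 9 libraries, 3 of them listed at 0 throughout. The spread within groups, over which the test is made, therefore differed between cultivars for them. Its median was 1.06 (log2) in 15-94 and 0.34 in Chuanshu 218, and it was larger in 15-94 for 11 of the 13, against 55.0% of all kept unigenes.

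The calls depended on the libraries that entered the fit. With only the 9 libraries of 15-94, limma called 0 unigenes, with adjusted p values of the 13 from 0.056 to 0.292 and 2402 kept unigenes at an unadjusted p under 0.05. With only the 6 libraries compared it also called 0 (adjusted p from 0.175 to 0.428, 2168 at an unadjusted p under 0.05). Relative depth as a covariate left 0 calls as well (1588 at an unadjusted p under 0.05), while the log2 changes became 5.88 for Iba_34075, 5.17 for Iba_07845, -5.13 for Iba_44809 and -5.44 for Iba_09379. Weighting the libraries by their variability (array weights) instead gave 482 calls among the kept unigenes, the 13 included, and 521 among all 32529 tested. Without replicate 1, 2 or 3 of 30 days the calls among the kept unigenes numbered 0, 83 and 0, and without replicate 1, 2 or 3 of 100 days 0, 1 and 1. Without replicate 2 of 30 days, 92 of all tested were called. All 13 were among the 83 made without replicate 2 of 30 days. Leaving out a Chuanshu 218 library of 30 or 100 days gave between 3 and 11 calls. In these fits, other than those without a Chuanshu 218 library, for which it was not computed, the 4 named unigenes kept their direction. Leaving out or weighting libraries could not turn it, because naming required that the ages do not overlap. Only the fit with the depth covariate could have.

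Below the limit for a call, 2451 of the 23942 kept unigenes (10.2%) had an unadjusted limma p under 0.05, 1190 higher and 1261 lower at 100 days. Over all 32529 unigenes tested the share was 8.69%. The median change of the kept unigenes was 0.05 (log2), and the 5th and 95th percentiles were -1.29 and 1.18. By group means, 1884 were at least 2-fold higher and 2217 at least 2-fold lower at 100 days. The 3 libraries of 30 days and the 3 of 100 days did not overlap for 1960 unigenes higher and 1712 lower at 100 days (15.3% together, against 12.5% of all tested). Of these, 937 were also at least 2-fold higher and 999 at least 2-fold lower at 100 days. These separated unigenes made up 3.91% and 4.17% of those kept, against 3.25% and 3.3% of all tested. At 4-fold they numbered 130 and 205 among those kept, and 130 (0.4%) and 211 (0.649%) among all tested. The filter thus kept nearly all unigenes separated at 4-fold, which follows largely by construction. A 4-fold difference on log2(FPKM + 1) needs a mean level well above 1 FPKM at the higher age.

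Direction varied with abundance. Where the mean was under 5 FPKM, 404 separated unigenes were higher and 247 lower at 100 days, so 62.1% were higher. Between 5 and 20 FPKM, 282 were higher and 319 lower, and between 20 and 50 FPKM 119 were higher and 205 lower. At 50 FPKM and over, 132 were higher and 228 lower, so 36.7% were higher. The median change went the same way, from 0.15 (log2) under 5 FPKM to -0.17 at 50 FPKM and over. Lower values are nearer to the worth of 1 read, which was larger in replicates 1 and 3 of 30 days, and the part of depth in this order was not tested.

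**Figure D2:**
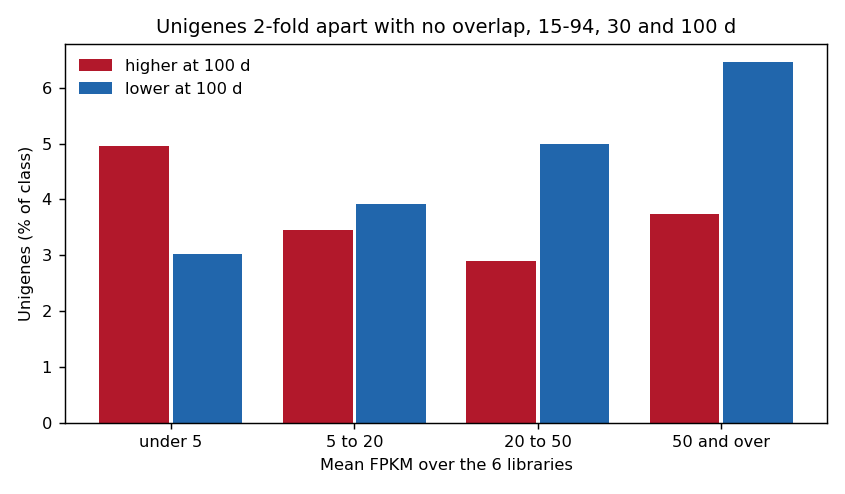
Share of the kept unigenes, in percent of each abundance class, whose libraries of 30 and 100 days did not overlap and whose means differed at least 2-fold, by direction (bars start at 0). Higher unigenes outnumber lower ones under 5 FPKM, 4.95% against 3.03%, and the order is turned at 50 FPKM and over, 3.74% against 6.46%.

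Each library was then left out of the choice in turn. Unigenes separated at least 4-fold in the other 5 libraries were taken, and the position of the sixth was read on a scale from 0, the mean of the 30-day libraries used, to 1, the mean of the 100-day libraries used. Replicate 1 of 30 days, left out, had a median position of -0.01 for 143 unigenes higher and 0.29 for 255 unigenes lower at 100 days. Replicate 3 lay at 0.48 (220 unigenes) and 0.19 (272). Replicate 2 lay at 0.68 (325) and 0.85 (618), nearer to the libraries of 100 days than to those of its own age. The libraries of 100 days lay at 0.99 and 0.84 (replicate 1), 0.49 and 0.43 (replicate 2) and 0.60 and 1.0 (replicate 3). Replicate 2 of 100 days thus lay near the midpoint.

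**Figure D3:**
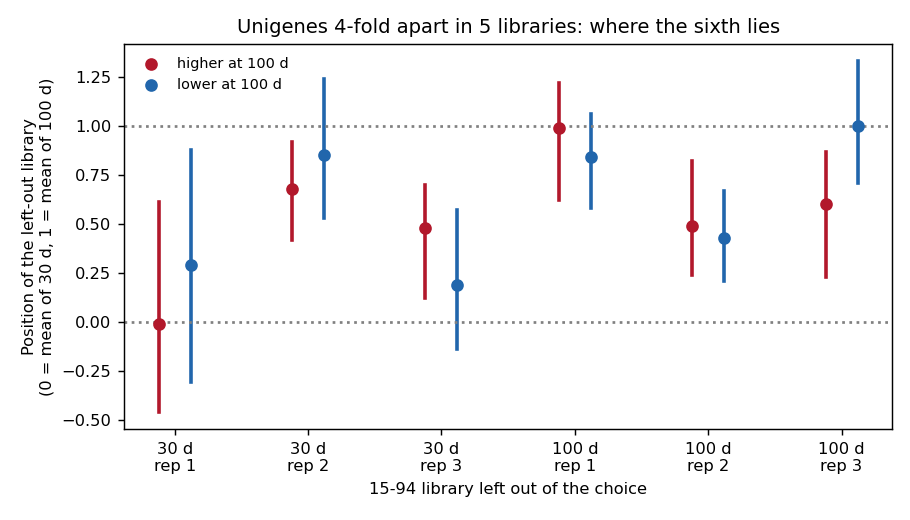
Median position, with the quartiles as a line, of each 15-94 library on the scale from 30 days (0) to 100 days (1), for unigenes separated at least 4-fold in the other 5 libraries. Replicate 2 of 30 days lies at 0.68 and 0.85, above replicates 1 and 3 of its age.

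The libraries of 65 days took no part in choosing the separated unigenes. On the same scale, with all 6 libraries in use, the mean of 65 days had a median position of 0.85 among the 937 higher and 0.92 among the 999 lower unigenes. It was past the midpoint for 82.3% and 88.0% of them. Over all kept unigenes the median position was 0.95 and 69.1% were past the midpoint, so the medians of the separated unigenes were not beyond that of all. That comparison is weak, because the position divides by the change from 30 to 100 days, which was small for many kept unigenes. Of them, 4500 lay below 0 and 11330 above 1. Whether the position is particular to the separated unigenes was not tested. The unigenes separated at least 4-fold differed by direction. The 205 lower ones had a median log2 difference of -2.27 from 30 to 65 days and of -0.25 from 65 to 100 days. The 130 higher ones had 1.64 and 1.05, so a larger part of their difference lay after 65 days. Of these 130, 34 lay in 2 stretches of neighbouring IDs (below) and may not be separate cases. At 2-fold the directions differed less, with medians after 65 days of 0.19 for the higher and -0.14 for the lower unigenes. By limma, 0 unigenes were called in either step. At an unadjusted p under 0.05 there were 4001 from 30 to 65 days (12.3% of those tested) and 1083 from 65 to 100 days (3.33%). Both steps use the libraries of 65 days, and those of 65 and 100 days were deeper than replicates 1 and 3 of 30 days.

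The position of the Chuanshu 218 libraries on this scale went with depth mainly through the 2 shallowest of them. For the unigenes higher in 15-94 at 100 days, the medians in replicates 1, 2 and 3 of Chuanshu 218 were -0.02, 0.80 and 0.65 at 30 days, 0.35, 0.99 and 0.90 at 65 days and 0.69, 0.55 and 0.97 at 100 days. The 2 lowest were the 2 libraries of that cultivar in which 1 read was worth most. Across its 9 libraries the position had r = -0.75 with the log2 value of 1 read (exact permutation p = 0.0303, and 0.0303 after adjustment for the 2 relations computed). Spearman's rho was -0.60 (exact permutation p = 0.0968). For the unigenes lower in 15-94 at 100 days it was r = -0.745 (exact permutation p = 0.03, adjusted p = 0.0303), with a rho of -0.60 (exact permutation p = 0.0968). When the shallowest and the deepest of the 9, replicates 1 and 2 of 30 days, were left out, r was -0.49 and -0.45. The second shallowest, replicate 1 of 65 days, was still included, and r without both shallow libraries was not computed. Among the rest no clear order with depth was seen for the higher unigenes. The deepest, replicate 2 of 30 days, lay at 0.80, and replicate 3 of 65 days, where a read counted for 1.6 units, at 0.90.

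**Figure D4:**
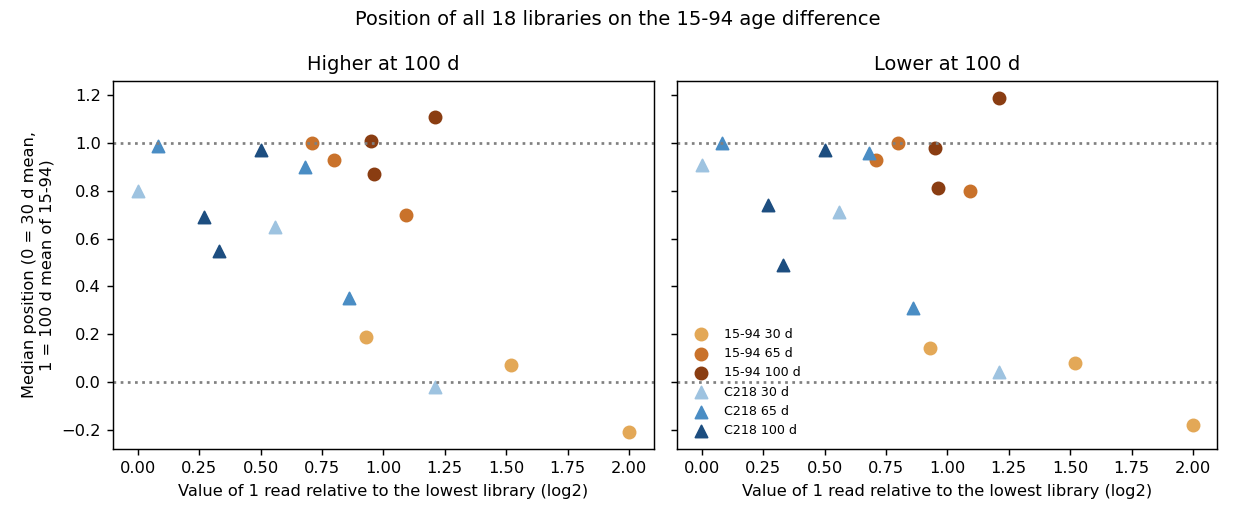
Median position of all 18 libraries on the 15-94 scale from 30 days (0) to 100 days (1) against the log2 value of 1 read, where larger values mean shallower libraries; circles are 15-94 and triangles Chuanshu 218. The shallowest Chuanshu 218 library lies at -0.02 for unigenes higher at 100 days; the 15-94 libraries of 30 and 100 days lie near 0 and 1 by construction.

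Chuanshu 218 shares no library with the comparison in 15-94. Of the 937 higher unigenes, 867 reached 1 FPKM in that cultivar, and 605 of these (69.8%) were also higher there at 100 days. Of the 999 lower ones, 965 reached 1 FPKM, and 647 (67.0%) were also lower. Over all kept unigenes that reached it, 59.8% had the same sign. The signs use replicate 1 of 30 days, the shallowest Chuanshu 218 library. On the 15-94 scale it lay at -0.02 for the higher and 0.04 for the lower unigenes. Replicates 2 and 3 of 30 days lay at 0.80 and 0.65, and at 0.91 and 0.71. Those values are within the range of the Chuanshu 218 libraries of 100 days, 0.55 to 0.97 and 0.49 to 0.97. The shares without replicate 1 were not computed. The median change in Chuanshu 218 was smaller, at 0.24 and -0.27 (log2) against 1.38 and -1.44 in 15-94, in which they had been chosen for their size. By the same rule, 1074 tested unigenes were separated and higher (3.3%) and 1087 separated and lower (3.34%) at 100 days in Chuanshu 218. Over all tested unigenes the 15-94 lists held 1056 higher and 1074 lower. Higher in both cultivars were 84, which is 7.95% of the 1056 in 15-94 and 7.82% of the 1074 in Chuanshu 218. Lower in both were 95 (8.85% and 8.74%), while 8 and 10 went in opposite directions.

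The interaction, which tests whether the cultivars differed in the change from 30 to 100 days, called 0 unigenes by limma. The smallest adjusted p was 0.92, and 1683 unigenes (5.17%) had an unadjusted p under 0.05. For the 13 called in 15-94, 12 had an unadjusted p under 0.05 for the interaction, but none passed the adjustment. These 13, Iba_44809 among them, were chosen for their change in 15-94, which is part of the interaction. Their low unadjusted p values therefore follow in part from the choice. In Chuanshu 218 alone the change from 30 to 100 days called 0 unigenes (2559 at an unadjusted p under 0.05, 7.87%). With array weights the interaction called 81 unigenes. A difference between the cultivars in these changes thus depended on the fit, and it is not shown for the named unigenes in the fit with equal weights. The interaction was -5.11 (SE 0.97) for Iba_44809, and its unadjusted p was 6.01e-05 (adjusted p = 0.92).

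The largest differences fell into kinds that the other cultivar told apart. Separated and at least 16-fold higher at 100 days in 15-94 were 25 unigenes (0.0769% of those tested), sorted here after their values were seen. In Chuanshu 218, 14 of the 25 were also at least 4-fold higher at 100 days, 10 differed by less than 2-fold, and 8 of these 10 stayed under 1 FPKM in all its libraries. All 14 had IDs in or beside 2 stretches of neighbouring numbers (below), so they may not be separate cases. The remaining unigene, the most abundant of those called, lay in the longer stretch but did not exceed 22.2 FPKM in Chuanshu 218. None of the 14 was called in 15-94 (limma adjusted p from 0.0673 to 0.418), while 3 of the 10 were. The test uses 1 spread for both cultivars, so sorting by Chuanshu 218 bears on these calls. For the 3 called, the spread within groups was 1.72 to 2.14 (log2) in 15-94 and 0.12 to 0.34 in Chuanshu 218. Fits of 15-94 alone called 0 of either kind.

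The 14 unigenes higher in both cultivars were abundant. In 15-94 they took 0.0566%, 0.173% and 0.545% of the FPKM at 30 days, 1.27%, 4.99% and 0.427% at 65 days and 7.81%, 6.89% and 1.76% at 100 days. The libraries of 65 days spread across the gap between the other ages. In Chuanshu 218 they took 0.171%, 0.174% and 2.62% at 30 days and 8.84%, 3.60% and 10.5% at 100 days. The leading one, the fifth most abundant unigene of 15-94 at 100 days, had 369, 277 and 2499 FPKM at 30 days and 34364, 32765 and 10063 FPKM at 100 days. Its ages did not overlap, but the libraries varied so much that the log2 difference of 5.14 had an SE of 1.48 (limma adjusted p = 0.312).

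The 10 unigenes that were flat in Chuanshu 218 showed the step pattern of Iba_34075, which is among them. Their median level was 0, 19.5 and 0 FPKM in the 3 libraries of 30 days, 0.32, 30.8 and 4.21 FPKM at 65 days and 148, 146 and 110 FPKM at 100 days. Replicate 2 was thus the highest library at both 30 and 65 days. Some of the 10 had consecutive ID numbers and may not be separate cases. Across the 9 libraries of 15-94, 12 unigenes had a correlation of at least 0.95 with Iba_34075, and 7 of these stayed under 1 FPKM in all Chuanshu 218 libraries. With Iba_09379, 22 unigenes had such a correlation, 2 of which stayed under 1 FPKM in Chuanshu 218. Among all 23942 kept unigenes, 894 did so. The correlations use the libraries by which the named unigenes were chosen, and a large step between ages makes high values easy to reach.

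At least 16-fold lower at 100 days were 24 separated unigenes (0.0738% of those tested). Their median level was 252, 47.9 and 196 FPKM in replicates 1, 2 and 3 of 30 days, 7.54, 0 and 6.5 FPKM at 65 days and 4.79, 7.53 and 0 FPKM at 100 days. Replicate 2 was the lowest library of 30 days, and the medians of 65 days were already in about the range of those of 100 days. In Chuanshu 218 their median reached 9.75 FPKM in replicate 1 of 30 days, 7.79 FPKM in replicate 1 and 24.0 FPKM in replicate 3 of 65 days, and was 0 in the other 6 libraries. Of the 24, 22 reached 10 FPKM in at least 1 library of that cultivar. By group means 14 were at least 2-fold lower there at 100 days, 3 of these at least 4-fold, and none was higher.

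**Figure D5:**
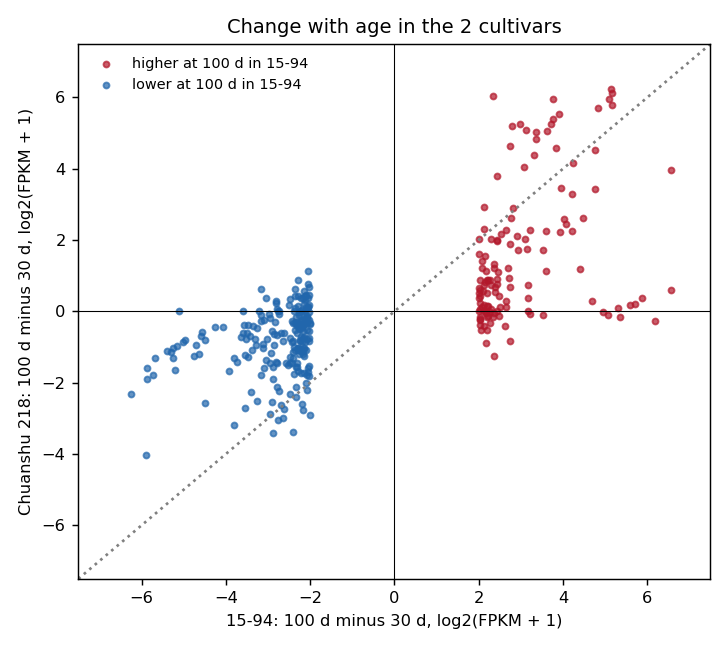
Change from 30 to 100 days, on log2(FPKM + 1), in 15-94 (x axis) and Chuanshu 218 (y axis) for the unigenes separated at least 4-fold in 15-94; the dotted line marks equal change. Of those that reached 1 FPKM in Chuanshu 218, 80.0% of the higher and 83.2% of the lower unigenes had the same sign there. Over all kept unigenes that reached it the share was 59.8%. Replicate 1 of Chuanshu 218 at 30 days, its shallowest library, lay at -0.02 (higher) and -0.03 (lower) on the 15-94 scale. Replicates 2 and 3 of that age lay at 0.35 and 0.77, and at 0.86 and 0.77. The part of replicate 1 in the shares was not tested. The higher ones include 2 stretches of neighbouring IDs, with 23 and 11 unigenes, that were all higher in both cultivars.

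Few unigenes appeared or disappeared. Listed at 0 in all 3 libraries of 30 days and at 1 FPKM or more in all 3 of 100 days were 20 unigenes (0.0615% of the number tested), with a highest mean level of 5.47 FPKM. The opposite listing held for 14 (0.043%), with a highest mean level of 118 FPKM. A listed 0 is not proof of absence. Raising the minimum to 5 FPKM left 0 and 2, and without replicate 2 of 30 days they were 183 and 77 at 1 FPKM.

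The most abundant transcripts took a larger share of the FPKM in the libraries of 100 days, by a wide margin in replicate 3 only. The 10 most abundant unigenes of each library held 9.69%, 5.45% and 9.33% at 30 days and 11.7%, 12.5% and 40.5% at 100 days. These ages did not overlap (exact permutation, two-sided p = 0.1, the smallest that 3 against 3 libraries allow). At 65 days the share was 11.2%, 9.51% and 25.8%, from within the range of 30 days to within that of 100 days. By mean level, 5 of the 10 most abundant unigenes of 30 days were among the 10 of 100 days, and 62 of the 100. The first at 100 days had 21883, 3488 and 10004 FPKM at 30 days and 9684, 10756 and 184339 FPKM at 100 days, so its higher mean came from replicate 3 alone.

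Some unigenes with large differences had consecutive ID numbers. Over 14855 pairs of neighbouring kept unigenes the changes had r = 0.266, and the mean levels r = 0.143, given as descriptions across unigenes of the same 6 libraries. Of 114 separated unigenes at least 4-fold higher at 100 days that had a kept neighbour, 39 (34.2%) had a neighbour of the same kind, but 34 of the 39 lay in only 2 stretches of IDs (steps of at most 5), with 23 and 11 unigenes. For 165 lower ones the number was 32 (19.4%), spread over 12 stretches. Of all 19803 kept unigenes with a kept neighbour, 0.742% had such a higher neighbour and 1.16% such a lower one. The sources used here do not say what the order of the IDs reflects.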

How the data were processed

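The authors deposited FPKM values for 46840 unigenes in 18 libraries; the series describes a de novo assembly. edgeR appears in the submitters' processing notes without a stated role. Which assembler, aligner and counter were used is not stated in them, nor whether libraries were scaled. Per the labels' protocols, Trizol RNA went into TruSeq stranded mRNA libraries.

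FPKM values are not counts, so limma 3.58.1 (R 4.3.3) was run on log2(FPKM + 1) with an eBayes trend. The model had 6 groups, which leaves 12 residual degrees of freedom. A unigene entered where 3 or more of the 18 libraries held 1 FPKM. The procedure was tested on simulated data. The named unigenes are the 2 called in each direction with the largest change that averaged 10 FPKM or more at the higher age and did not overlap. Members and lists were chosen with earlier results of these data known. Relative depth was fitted from ratios of low values, and 98.0% of library pairs were within 0.05 (log2) of the fit. Absolute depth is unknown. The labels give no batch. Exact permutations and figures used Python 3.11.15, SciPy 1.17.1 and matplotlib 3.10.9. Replicate numbers did not pair the libraries. Alternatives covered the pseudocount, low-value filter, scaling, array weights, a depth covariate, the libraries fitted, a replicate block and leaving out each library.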

Additional observations from a re-analysis of the deposited data

How the results depend on the processing

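Main counts were 8 risen and 5 fallen unigenes, 0 interactions, 937 and 999 separated, and 20 and 14 listed at 0 at 30 or 100 days. Here and below, risen and fallen calls are counted among the kept unigenes and interactions among all tested. Median-of-ratios scaling (8 and 5) and quantile normalization (7 and 4) kept the calls within 1.5 times. Risen and fallen calls were 214 and 268 with array weights (81 interactions), 1 and 3 at a pseudocount of 0.1, 0 and 2 for a linear trend over the ages, and 0 and 0 with depth as a covariate or with the 6 or 9 libraries of 15-94 alone. Risen calls were 1 at a pseudocount of 0.5, 3 without a filter and 0 with a filter at 5 FPKM. Fallen calls were 8 without an eBayes trend and 2 without 65 d replicate 3 and 100 d replicate 3, chosen after seeing the data. The fit of fewer libraries has fewer degrees of freedom; for the other settings the cause was not tested. At least 4-fold, 130 and 205 were separated, and at a minimum of 5 FPKM 0 and 2 were listed at 0.

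Leaving out each library in turn gave 0 to 32 risen, 0 to 51 fallen, 0 to 2 interactions, 1153 to 2162 separated higher, 1058 to 2296 separated lower, 33 to 183 listed at 0 at 30 days and 33 to 77 at 100 days. Separation and listing over 5 libraries are easier to meet by construction.

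The replicate block called 14 risen and 12 fallen unigenes and 0 interactions. Same-numbered libraries of 30 and 100 days in 15-94 had correlations of -0.0593, -0.228 and -0.0742 between their deviations, so no pairing by number was seen between these ages. The check did not cover 65 days, where the profile of replicate 3 had a correlation of 0.917 with replicate 3 of 100 days.

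The 4 named unigenes kept their direction in all 20 settings each. Settings that leave out or weight libraries, or change the pseudocount or filter, could not turn it. Naming required that the ages do not overlap. Iba_44809 stayed called in 12, Iba_09379 in 10 and the other two in 6. Differences near the value of 1 read cannot be resolved at these depths.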
